A study of Mus musculus with 66 samples.

Results

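Genes that mark T cells and what they do on activation, 10 of the 30452 genes in the deposited table, were followed through injury and repair of the mouse colon. They were chosen by name: Cd3e and Cd3g of the T cell receptor complex, the coreceptors Cd4, Cd8a and Cd8b1, the regulatory T cell factor Foxp3, the cytokines Ifng and Il17a, and the granzymes Gzma and Gzmb. Each gene's value is the sum over its transcripts of TPM, a relative abundance per unit of transcript length that is scaled to the same total in every library.

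The samples came from 19 wild-type C57Bl/6 mice purchased at 6 weeks of age, with no genetic alteration named. Uninjured mice were killed on experimental day 0 (4 mice). The others were exposed to the dextran sulfate sodium (DSS) protocol and killed on day 3, 6, 9, 14 or 20 (3 mice a day). DSS is a polymer that damages the colonic lining. The protocol gave it at 3% for 6 days from day 0, so mice of day 3 had received part of the course. Every mouse gave a section of mid-colon, rectum and anus (19 samples each), and the mice of days 9, 14 and 20 also gave squamous neo-epithelium (9 samples), with the muscle layer discarded in each case. Mice are numbered as in the labels: 1 to 4 on day 0, 5 to 7 on day 3, 8 to 10 on day 6, 11 to 13 on day 9, 14 to 16 on day 14 and 17 to 19 on day 20.

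T cells recognise antigen through a receptor that signals through the CD3 chains, and the coreceptors CD4 and CD8 bind the MHC molecules that present antigen. CD8 T cells kill by releasing granzymes, helper T cells act through cytokines such as interferon-gamma and interleukin-17A, and regulatory T cells that depend on Foxp3 restrain the others. None of these products belongs to conventional T cells alone: natural killer (NK) cells make granzymes and interferon-gamma, gamma-delta T cells and innate lymphoid cells make interleukin-17A, and some macrophages and dendritic cells of the gut carry CD4. These were whole tissue pieces, in which more cells of a type and more RNA per cell cannot be told apart.

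In the GENCODE M21 annotation of GRCm38, Cd3g (chr9:44969572-44980431) and Cd3e (chr9:44998740-45009627) neighbour each other on the minus strand, and Cd8b1 (chr6:71322788-71337494) and Cd8a (chr6:71373427-71379173) on the plus strand. Cd4 lies at chr6:124864692-124888221 and Foxp3 at chrX:7573644-7595245. Ifng lies at chr10:118441046-118445892, Il17a at chr1:20730905-20734496, Gzma at chr13:113093825-113100981 and Gzmb at chr14:56258838-56262260. The 250 bases upstream of the start site are shown for the 4 effector genes, because their highest values over the study all fell in the same sample, the rectum of mouse 12 on day 9. They are printed 5′ to 3′ on the coding strand from RefSeq's GRCm38.p6 table, which held 8 of the 10 genes.
Ifng, chr10:118440796-118441045, plus strand: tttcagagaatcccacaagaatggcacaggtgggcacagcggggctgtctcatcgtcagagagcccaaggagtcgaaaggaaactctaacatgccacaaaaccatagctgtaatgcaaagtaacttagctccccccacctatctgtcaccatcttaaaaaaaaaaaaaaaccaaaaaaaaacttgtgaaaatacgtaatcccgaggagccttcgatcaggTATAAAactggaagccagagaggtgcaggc
Il17a, chr1:20730655-20730904, plus strand: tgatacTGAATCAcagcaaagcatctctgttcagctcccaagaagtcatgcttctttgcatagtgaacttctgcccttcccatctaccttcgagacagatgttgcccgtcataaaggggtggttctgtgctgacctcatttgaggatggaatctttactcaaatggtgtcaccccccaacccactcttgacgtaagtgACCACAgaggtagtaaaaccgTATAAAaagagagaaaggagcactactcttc
Gzma, chr13:113100982-113101231, minus strand: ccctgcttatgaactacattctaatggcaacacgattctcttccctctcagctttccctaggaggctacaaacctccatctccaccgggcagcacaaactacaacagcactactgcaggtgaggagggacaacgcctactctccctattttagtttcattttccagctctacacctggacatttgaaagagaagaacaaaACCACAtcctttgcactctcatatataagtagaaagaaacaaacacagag
Gzmb, chr14:56262335-56262584, minus strand: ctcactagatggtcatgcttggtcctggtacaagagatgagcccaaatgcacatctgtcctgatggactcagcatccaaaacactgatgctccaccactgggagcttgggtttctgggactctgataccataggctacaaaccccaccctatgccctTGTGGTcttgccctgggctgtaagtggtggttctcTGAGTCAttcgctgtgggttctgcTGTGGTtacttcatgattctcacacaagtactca
Capitals mark letters that match a TATA box (TATAAA), a Runx motif (TGTGGT) or an AP-1 motif (TGANTCA), searched on both strands. Positions count back from the RefSeq start site. The windows of Ifng, Il17a and Gzma adjoin their GENCODE genes. The Gzmb window begins upstream, at 56262335 against a GENCODE gene end of 56262260, so its positions do not count from that gene end. Ifng held a TATA match at -30, and Il17a held one at -31, a Runx match at -52 and an AP-1 match at -244. Gzma held a Runx match at -50. Gzmb held Runx matches at -93 and -34 and an AP-1 match at -58. Of 32851 promoter windows of the same length, 12.4% held the TATA letters, 14.0% the Runx letters and 6.75% the AP-1 letters. A T-box motif (AGGTGTGA, in 1.12% of windows) was found in none of the 4. These are letter matches only.

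The table gives no read counts, so sequencing depth is unknown. Between 11268 and 13789 genes reached 1 TPM per sample, and mitochondrial genes took between 6.26% and 28.5% of the total. The labelled tissues were checked against marker genes: summed squamous keratinocyte markers (6 genes) lay between 4.84 and 22.3 TPM in every mid-colon and between 7882 and 23012 TPM in anus and neo-epithelium. Rectum held between 7.89 and 749.6 TPM of them. Summed colonocyte markers (6 genes) were 2861 TPM or more in every mid-colon and rectum. In neo-epithelium they lay between 161 and 421 TPM on day 9, 737 and 2924 TPM on day 14 and 1706 and 3318 TPM on day 20.

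All 10 genes were scarce. The median over 66 samples was highest for Cd3g at 3.00 TPM, then Cd4 at 1.35, Gzmb at 0.667, Cd3e at 0.588, Gzma at 0.580, Cd8a at 0.270 and Cd8b1 at 0.193 TPM. Foxp3, Il17a and Ifng had medians of 0.0610, 0.0583 and 0.0507 TPM. Cd3g reached 1 TPM in 56 of 66 samples and Foxp3 in 1. Il17a was listed at 0 in 32 samples, Ifng in 27 and Gzma in 12. Peak values had another order: the highest single values were 39.4 TPM for Gzma, 31.7 for Ifng and 30.7 for Gzmb, against 11.0 TPM for Cd3g. A gene entered a test where at least 1 TPM was reached in as many samples as the fit's smallest group held. A group is 1 section on 1 day, also where neo-epithelium was compared over several days. Most members were therefore untested before day 9. A second filter of 0.1 TPM, chosen after the values were seen, gives tests for the scarcer ones, and results from it are named as such. Some members pass a filter only through the group in which they are high, so counts of called members carry no weight of their own. Folds are differences in log2(TPM + 1), which understates the change of low genes, and every adjusted p is from limma with Benjamini-Hochberg adjustment over all genes tested.

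**Figure D1:**
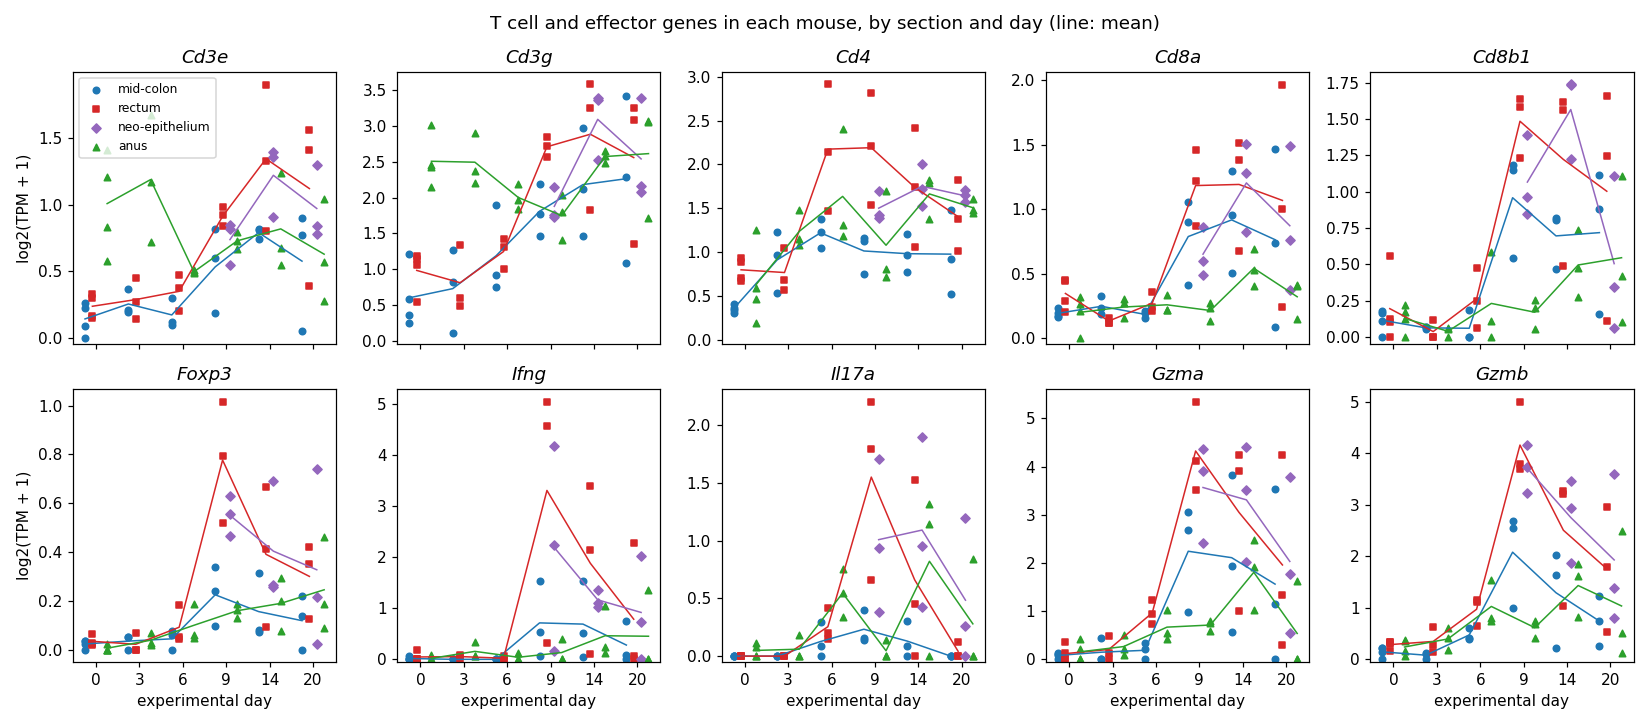
Each panel plots log2(TPM + 1) of 1 gene against experimental day. Points are single mice, coloured by section, and lines join the means of each section. In rectum, all 3 mice of day 9 lie above all 4 uninjured mice for each of the 10 genes, whereas in anus Cd3g starts high (3.42 to 7.07 TPM) in uninjured mice.

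The receptor complex was followed first. Cd3g encodes the gamma chain of CD3. In uninjured rectum it stood at 1.28, 0.454, 1.21 and 1.09 TPM in mice 1 to 4. On day 9 it stood at 4.94, 6.19 and 5.57 TPM in mice 11, 12 and 13. The groups did not overlap, and Cd3g rose by 1.73 ± 0.19 (log2, SE; adjusted p = 1.15e-04). On day 6 the rectal values were 1.69, 1.48 and 1.01 TPM, which overlapped the uninjured ones (0.26 ± 0.20, adjusted p = 0.293). All 5 members tested in rectum on day 9 were called, all of them higher, and 53.5% of all 13140 genes tested were called (33.5% higher). Their median change was 1.73, beside 0.13 over all genes tested. The members tested are those that reached 1 TPM on day 9, so this count carries no weight of its own. The 0.1 TPM filter gave 10 calls of 10, beside 44.8% of all genes. That filter was set after the values were seen, and genes such as Foxp3 and Il17a pass it through the day 9 mice alone, so this count carries no weight either. All rectal values of day 9 exceeded all uninjured values for 10 of 10 members, which held for 25.5% of all genes. The same count was 4 on day 6, 7 on day 14 and 5 on day 20, where 10.0%, 10.0% and 8.46% of all genes did so. The median over all genes depends on scaling: with TMM factors, which correct for a few dominant genes, it moved from 0.13 to -0.08 on day 9, and the changes were 1.5 for Cd3g, 1.17 for Cd4, 3.92 for Gzma and 3.59 for Gzmb, all still called, while Cd8b1 no longer passed the filter.

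Rectal Cd3g on day 14 was 2.55, 11.0 and 8.49 TPM in mice 14, 15 and 16, and all 3 exceeded the uninjured mice. The change was 1.90 ± 0.40 (adjusted p = 0.0230), 1 of the 3 calls among 4 tested members, beside 15.8% of all genes. The 0.1 TPM filter gave 5 calls of 8, beside 11.0%. On day 20 it was 7.48, 8.49 and 1.55 TPM in mice 17, 18 and 19, again all above the uninjured values, and the change of 1.58 ± 0.44 was not called (adjusted p = 0.0629). No member of 2 tested was called by limma on that day, where 7.68% of all genes were, although both had an unadjusted p under 0.05. Mice 14 and 19 were the low ones of their days, so fits without them carry no weight of their own. Without mouse 19 the day 20 change was 2.18 (adjusted p = 0.00139), and without mouse 14 the day 14 change was 2.43 (adjusted p = 1.84e-04), but without any 1 of the other 6 mice the day 14 call was lost (adjusted p up to 0.0954), and it was also lost without a filter.

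Cd3e encodes the epsilon chain. Its rectal values were 0.258, 0.108, 0.122 and 0.232 TPM on day 0 and 0.787, 0.890 and 0.970 TPM on day 9, without overlap. The day 9 change was 0.67 ± 0.10 with the 0.1 TPM filter (adjusted p = 6.93e-04). Unlike the granzymes below, Cd3e had its rectal maximum after day 9, at 2.73 TPM in mouse 15, and the day 14 and day 20 values all lay above day 0 (0.747, 2.73 and 1.5 TPM, then 1.95, 1.65 and 0.312 TPM).

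In mid-colon Cd3g stood at 0.502, 0.285, 0.186 and 1.32 TPM uninjured, 3.55, 2.43 and 1.76 TPM on day 9 and 1.75, 3.35 and 6.83 TPM on day 14. Both later groups lay above all uninjured mice. It rose by 1.21 ± 0.27 on day 9 (adjusted p = 0.00442) and 1.58 ± 0.36 on day 14 (adjusted p = 0.0438). The day 14 call did not hold without 5 of the 7 mice in turn (adjusted p up to 0.171) or with the filter lowered or removed, or with a pseudocount of 0.1 TPM (adjusted p up to 0.110 over these settings). On day 9, 2 of 2 members tested were called, beside 43.4% of all genes, and on day 14 1 of 1, beside 4.36%. Under the 0.1 TPM filter these counts were 6 of 8 on day 9 and 3 of 7 on day 14, beside 35.4% and 3.68% of all genes. Members tested at 1 TPM passed that filter through the later mice, and the lower filter was set after the values were seen. None of these counts carries weight of its own. On day 9, 9 of 10 members lay above all uninjured mice in mid-colon, and 21.2% of all genes did. Cd3e was the exception, at 0.517, 0.757 and 0.135 TPM. On day 14 it was 7 of 10 members, beside 9.39%.

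The anus differed from the start. Uninjured anus held Cd3g at 3.42, 4.47, 7.07 and 4.37 TPM, more than the rectum of the same mouse in 4 of 4 mice, and the difference was 1.52 ± 0.22 (adjusted p = 2.84e-04). Cd3g was the 1 member tested there, and 60.3% of all genes were called. Cd3e was also higher in 4 of 4 mice (0.488, 1.31, 1.66 and 0.783 TPM), by 0.77 ± 0.18 with the 0.1 TPM filter (adjusted p = 0.00513; 2 of 5 members called, beside 52.7% of all genes). Coreceptors and effectors were scarce there: Cd8a in uninjured anus was at most 0.249 TPM, Cd8b1 0.167, Gzma 0.342 and Gzmb 0.297 TPM. Cd4 there was 1.39, 0.146, 0.378 and 0.508 TPM, below the same mouse's rectum in 3 of 4.

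Other receptor genes were also higher in uninjured anus. Of the list of receptor and proximal signalling genes (12 genes besides the members), 4 were tested and 3 were higher in anus than in rectum. They were the beta chain constant genes Trbc1 (2.36 ± 0.25) and Trbc2 (3.68 ± 0.32) and the adaptor Lat (0.88). Trbc2 averaged 31.2 TPM in uninjured anus and 1.64 TPM in uninjured rectum, whereas Trac, the alpha chain constant gene, averaged 0.695 and 0.370 TPM and was not tested. Of the gamma-delta and intraepithelial list (7 of 8 genes in the table), Tcrg-C1, a gamma chain constant gene, and Cd7 were tested, and both were higher in anus, Tcrg-C1 by 1.35 ± 0.31 (adjusted p = 0.00412). Tcrg-C1 ranged from 1.17 to 4.82 TPM in uninjured anus and from 0 to 0.721 TPM in uninjured rectum. Most genes differed between these tissues: of all 13158 tested, 3413 were higher in anus and 4523 lower. The part of tissue composition in these values was not tested.

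During injury Cd3g in anus did not rise as in rectum. On day 9 it was 1.66, 3.09 and 2.49 TPM, below all 4 uninjured mice (-0.76 ± 0.27, adjusted p = 0.158). Cd3g was the 1 member tested there and limma called 0, although its unadjusted p was under 0.05, beside 5.09% of all genes. The response itself differed: the day 9 change of Cd3g was lower in anus than in rectum, with a difference of -2.49 ± 0.33 on the log2 scale (adjusted p = 1.16e-04). Anal Cd3g was 4.98, 4.59 and 5.31 TPM on day 14 and 2.29, 7.35 and 7.39 TPM on day 20, and both groups overlapped the uninjured one. Anal Cd3e on day 6 lay between 0.402 and 0.420 TPM, below all uninjured mice, and was not called without a filter (adjusted p = 0.204). The anal pieces also differed in other tissue between these days: summed colonocyte markers lay between 611 and 1913 TPM uninjured, between 67.8 and 123 TPM on day 6 and between 78.3 and 110 TPM on day 9. Summed skeletal muscle markers (4 genes) lay between 832 and 9319 TPM in uninjured anus and between 3876 and 3977 TPM on day 9. Their part in the anal values was not tested. In anus on day 14, 7 of 10 members, among them Cd4, Cd8a, Cd8b1 and the granzymes, lay above all uninjured mice, beside 7.92% of all genes.

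On days 3 and 20 no member was called in any section. On day 3 limma called 0 of 1 tested members in rectum and 0 of 3 in anus, none with an unadjusted p under 0.05, beside 6.62% and 0.044% of all genes. No member was tested in mid-colon on that day, where 0.375% of all genes were called. On day 20 it called 0 of 1 in mid-colon and 0 of 3 in anus, where 1 member each had an unadjusted p under 0.05, beside 1.56% and 1.46% of all genes. Uninjured rectum and mid-colon were compared for Cd3g alone, which was not called (0.38 ± 0.23, adjusted p = 0.311), beside 1.79% of all genes. The difference in response between sections was not called for any member on days other than day 9. With TMM scaling Cd3g was called for anus against rectum on day 6 (-0.97, adjusted p = 0.0238) and day 14 (-1.81, adjusted p = 0.0355). For rectum against mid-colon that was 0 of 1, 2, 6 and 5 tested members on days 3, 6, 14 and 20, none with an unadjusted p under 0.05, beside at most 0.00756% of all genes (0.0% on days 3 and 6 and 0.00755% on day 14). For anus against rectum it was 0 of 3, 3, 7 and 6, of which 0, 1, 2 and 2 had an unadjusted p under 0.05, beside 0.474%, 21.5%, 2.06% and 0.198% of all genes.

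Among the coreceptors, the CD8 genes were higher in rectum on day 9. Cd8a encodes the alpha chain and Cd8b1 the beta chain, which pairs with it on conventional CD8 T cells. Rectal Cd8b1 was 0.0879, 0.0743, 0 and 0.473 TPM uninjured and 2.11, 2.00 and 1.35 TPM on day 9, without overlap, a rise of 1.29 ± 0.19 (adjusted p = 5.55e-04). Rectal Cd8a was 0.363, 0.222, 0.149 and 0.361 TPM uninjured and 1.33, 1.74 and 0.830 TPM on day 9 (0.84 ± 0.15 with the 0.1 TPM filter, adjusted p = 0.00241). Neither moved on day 3 or day 6 beyond the spread of the uninjured mice upwards: the highest rectal values on those days were 0.280 TPM for Cd8a and 0.391 TPM for Cd8b1. Rectal Cd8a on day 3 lay between 0.0852 and 0.116 TPM, below all uninjured mice, and was not called without a filter (adjusted p = 0.193). In mid-colon on day 9 Cd8b1 was 1.22, 1.27 and 0.458 TPM, against at most 0.135 TPM uninjured (0.84 ± 0.16 with the 0.1 TPM filter, adjusted p = 0.00314). In anus on day 9 Cd8b1 was between 0.0394 and 0.196 TPM, and its change there was lower than in rectum (difference -1.25 ± 0.24, adjusted p = 0.00228).

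Cd4 was already higher on day 6. In rectum it was 0.914, 0.626, 0.591 and 0.857 TPM uninjured and 3.40, 1.76 and 6.56 TPM on day 6, a rise of 1.37 ± 0.30 (adjusted p = 0.00685). That was 1 of the 2 members tested on day 6, when 48.7% of all genes were called. In mid-colon it was 0.330, 0.270, 0.287 and 0.242 TPM uninjured and 1.35, 1.07 and 1.61 TPM on day 6, a rise of 0.86 ± 0.15 (adjusted p = 0.00735), the 1 member tested beside 14.9% of all genes called. The day 6 groups did not overlap with day 0 in either section. On day 9 rectal Cd4 was 3.63, 1.91 and 6.05 TPM (1.39 ± 0.27, adjusted p = 0.00269). It was highest in mouse 13, whose Gzma and Cd8 values were not the highest. In anus Cd4 reached 4.30, 1.28 and 1.49 TPM on day 6 and the change was not called (1.01 ± 0.36, adjusted p = 0.103). Limma called 0 of 2 members there, 1 with an unadjusted p under 0.05, beside 15.0% of all genes.

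Over the 66 samples the genes whose log2(TPM + 1) was most like that of Cd4, among 13390 searched, were Lgmn (Pearson r 0.86), Cd300c2 (0.86) and Ms4a7 (0.86). Lgmn encodes a lysosomal protease. Those most like Cd3g were Ctsw (0.87), a cathepsin of cytotoxic lymphocytes, Cd74 (0.86), the MHC class II invariant chain, and H2-Q7 (0.86), an MHC class I gene. The points share mice and days, so these are descriptions. Summed macrophage and monocyte markers (6 genes: Cd14, Csf1r, Adgre1, Lyz2, C1qa and Cd68) went from between 182 and 260 TPM in uninjured rectum to between 772 and 1756 TPM on day 6. In mid-colon they went from between 132 and 179 TPM to between 474 and 763 TPM. In rectum on day 6, 6 of 6 of them were higher, as were 1455 of all 12615 genes tested. Their log2 sum had r 0.84 with Cd4 and 0.50 with Cd3g over 66 samples. The part of macrophages in the Cd4 values was not tested.

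**Figure D2:**
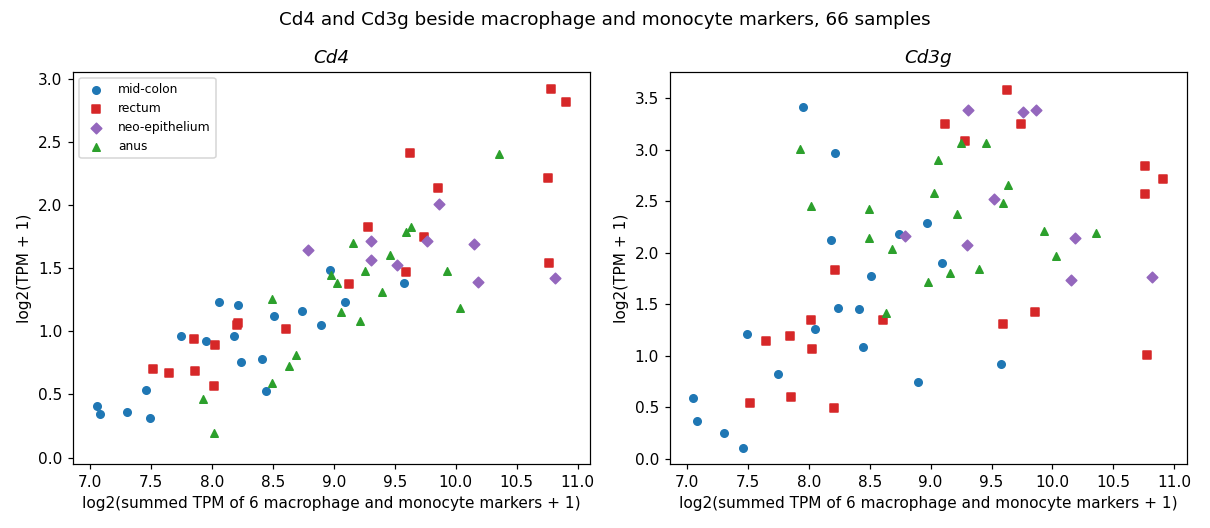
Log2(TPM + 1) of Cd4 (left) and Cd3g (right) is plotted against the log2 of the summed TPM of 6 macrophage and monocyte markers. Each point is 1 of 66 samples, coloured by section. Cd4 follows the marker sum (Pearson r 0.84) more closely than Cd3g does (0.50).

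Foxp3 had the lowest peak of the 10 members, at 1.02 TPM. Its rectal values were 0.0172, 0.0144, 0.0465 and 0.0183 TPM uninjured and 0.434, 0.734 and 1.02 TPM on day 9, without overlap. This was a rise of 0.74 ± 0.12 with the 0.1 TPM filter (adjusted p = 0.00131). It stood at 0.0652, 0.587 and 0.333 TPM on day 14 and 0.339, 0.276 and 0.0923 TPM on day 20, above all uninjured mice on both days. In mid-colon it was at most 0.0260 TPM uninjured and 0.264, 0.180 and 0.0702 TPM on day 9. The rectal response exceeded that of mid-colon by 0.54 ± 0.14 on day 9 with the 0.1 TPM filter (adjusted p = 0.0385). Neo-epithelium on day 9 held 0.545, 0.381 and 0.471 TPM. Of the list of helper and regulatory factors (12 genes), 9 were tested in rectum on day 9. Of these 7 were higher, beside 33.5% of all genes. Tnfrsf18, a costimulatory receptor prominent on regulatory T cells, was up by 1.59 ± 0.16.

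Ifng, the gene of interferon-gamma, split the mice of a single day. In uninjured rectum it was listed at 0 in 3 mice and at 0.136 TPM in mouse 2. On day 9 it was 31.7 TPM in mouse 12 and 22.7 TPM in mouse 13 and 0.246 TPM in mouse 11. The groups did not overlap, but the change of 3.26 ± 0.98 with the 0.1 TPM filter (adjusted p = 0.0253) rests on 3 mice this far apart and was not called without a filter (adjusted p = 0.0517). Mouse 11 was also low in mid-colon (0.0498 against 1.90 and 0.450 TPM) and in neo-epithelium (0.116 against 3.69 and 17.1 TPM). On day 14 rectal Ifng was 0.0814, 3.38 and 9.54 TPM in mice 14, 15 and 16. On day 20 it was 0.0509, 3.87 and 0 TPM in mice 17, 18 and 19.

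Most tested genes that interferon-gamma induces were higher in rectum on day 9. Of the list of its receptors and targets (10 genes), 8 were tested in rectum on day 9. Of these 6 were higher, beside 33.5% of all genes, and both receptor genes, Ifngr1 (-0.80 ± 0.11) and Ifngr2 (-1.23 ± 0.13), were lower. Gbp2, an interferon-induced GTPase, rose by 4.57 ± 0.62 (adjusted p = 3.44e-04), and its 3 values lay between 121 and 989 TPM. Cxcl10, a chemokine that draws T cells, rose by 6.19 ± 1.11 (adjusted p = 0.00160), with values between 9.68 and 383 TPM. Part of this list was higher earlier: Gbp2 was already up by 2.88 ± 0.28 in rectum on day 6 (adjusted p = 2.75e-04), when Ifng was at most 0.0466 TPM in rectum.

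Il17a, the gene of interleukin-17A, was listed at 0 in all uninjured mid-colon and rectum and in all 6 of these sections on day 3. Rectal values were 0.111, 0.146 and 0.334 TPM on day 6 and 0.577, 3.59 and 2.46 TPM on day 9. With the 0.1 TPM filter the change was 0.25 ± 0.08 on day 6 (adjusted p = 0.0367; 4 of 8 members called, beside 38.6% of all genes) and 1.55 ± 0.31 on day 9 (adjusted p = 0.00396). Mouse 11 was again the lowest of day 9. By day 20 rectal Il17a was listed at 0 in 2 mice and at 0.0915 TPM in mouse 18, a change of -1.51 ± 0.36 from day 9 with that filter (adjusted p = 0.0319; 2 of 10 members called, beside 15.0% of all genes), which was not called without a filter (adjusted p = 0.0674). In anus it stood at 0.689, 0.457 and 0.262 TPM on day 6 (0.50 ± 0.12 with the 0.1 TPM filter, adjusted p = 0.0341; 2 of 8 members called, beside 11.4% of all genes), against at most 0.0848 TPM uninjured. It was then at or below 0.101 TPM on day 9, and on day 14 it was 1.21 TPM in mouse 14, listed at 0 in mouse 15 and highest in mouse 16.

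Other T cell cytokines were few. Of 12 listed, 3 were tested in rectum on day 9 and all 3 were higher, beside 33.5% of all genes. Tnf, made by many leukocytes, rose by 5.24 ± 0.36. Il17f, the closest relative of Il17a, rose by 1.69 ± 0.29 from a mean of 0.838 TPM to 5.01 TPM. Of the interleukin-17 list (7 genes), 6 were tested, 5 were higher and the receptor gene Il17rc was lower (-1.56 ± 0.26). Lcn2, an antibacterial protein that epithelium makes on interleukin-17 signalling, rose by 7.46 ± 0.21. Neutrophils also make Lcn2, and summed neutrophil markers went from at most 5.92 TPM in uninjured rectum to between 11102 and 13161 TPM on day 9. Their part was not tested.

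Both granzymes were higher in rectum on day 9. Gzma encodes granzyme A, a protease of cytotoxic granules. In uninjured rectum it was listed at 0 in mice 1 and 3 and stood at 0.284 and 0.0909 TPM in mice 2 and 4. It was 1.34, 0.658 and 0.922 TPM on day 6, 10.4, 39.4 and 16.4 TPM on day 9, 1.02, 13.9 and 17.8 TPM on day 14 and 1.52, 18.1 and 0.230 TPM on day 20. All mice of days 6, 9 and 14 lay above all uninjured mice. The change was 4.20 ± 0.37 on day 9 (adjusted p = 3.48e-05) and 2.93 ± 0.70 on day 14 (adjusted p = 0.0319). The day 14 change was 3.95 without mouse 14, and the call was lost without any 1 of the other 6 mice (adjusted p up to 0.118) or without a filter.

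Gzmb encodes granzyme B, which triggers apoptosis in target cells. Its rectal values were 0.262, 0.257, 0.124 and 0.235 TPM uninjured, 1.21, 0.568 and 1.17 TPM on day 6, and 11.8, 30.7 and 12.9 TPM on day 9. All mice of day 6 and of day 9 exceeded the uninjured ones. It rose by 3.87 ± 0.30 on day 9 (adjusted p = 1.60e-05). The day 6 changes were also called with the 0.1 TPM filter, at 0.84 ± 0.14 for Gzma (adjusted p = 0.00383) and 0.69 ± 0.13 for Gzmb (adjusted p = 0.00672). Gzmb stood at 1.06, 8.62 and 8.23 TPM on day 14 (2.22 ± 0.51, adjusted p = 0.0280; 2.95 without mouse 14, and not called without any 1 of the other 6, adjusted p up to 0.112, or without a filter). On day 20 it stood at 2.48, 6.70 and 0.436 TPM.

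From day 9 to day 20 rectal Gzmb changed by -2.40 ± 0.61 (adjusted p = 0.0304), the 1 member called of 7 tested, beside 20.8% of all genes. This call was lost without 4 of the 6 mice in turn (adjusted p up to 0.0949), without a filter and with TMM scaling. Gzma differed by -2.36 ± 0.95 and Ifng by -2.52 ± 1.21 over the same days, neither called (adjusted p = 0.114 and 0.177). Rectal Cd3g differed by -0.15 ± 0.48 (adjusted p = 0.854). Limma called no member between these days in mid-colon (0 of 5 tested, 1 with an unadjusted p under 0.05, beside 20.6% of all genes), anus (0 of 2, none under 0.05, beside 2.15%) or neo-epithelium (0 of 5, 1 under 0.05, beside 26.2%).

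In mid-colon Gzma was at most 0.0994 TPM uninjured and 5.47, 7.37 and 0.970 TPM on day 9. It was 0.486, 2.84 and 13.2 TPM on day 14. The day 9 change was 2.16 ± 0.41 with the 0.1 TPM filter (adjusted p = 0.00332). Mid-colonic Gzmb was at most 0.169 TPM uninjured and 5.41, 4.86 and 1.00 TPM on day 9 (1.93 ± 0.35, adjusted p = 0.00159). The rectal response exceeded the mid-colonic one by 1.94 ± 0.51 for Gzmb on day 9 (adjusted p = 0.0349), 1 of 7 tested members beside 6.55% of all genes. This call was lost without 5 of the 7 mice in turn (adjusted p up to 0.112), with a pseudocount of 0.1 TPM, without a filter and with TMM scaling (adjusted p up to 0.277). Under the 0.1 TPM filter 3 of 10 members were called, Gzmb, Foxp3 and Il17a (1.32 ± 0.35, adjusted p = 0.0429), beside 5.22% of all genes. Without a filter Il17a was not called (adjusted p = 0.0710). With the mouse as a block Gzmb stayed called and Gzma was called too (2.04, adjusted p = 0.0238, against 0.0664 without the block).

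In anus on day 9 Gzma was 0.502, 0.749 and 0.684 TPM and Gzmb 0.334, 0.613 and 0.668 TPM. All 3 mice exceeded the uninjured mice for both genes, yet each mouse's anus lay far under its rectum. The change in anus was lower than in rectum, with a difference of -3.65 ± 0.44 for Gzma (adjusted p = 5.97e-05) and -3.50 ± 0.36 for Gzmb (adjusted p = 1.94e-05). With Cd3g and Cd8b1 these were 4 of 5 tested members, beside 19.9% of all genes. Under the 0.1 TPM filter Cd3e (-0.95 ± 0.23), Cd8a (-0.82 ± 0.19), Foxp3 (-0.59 ± 0.13) and Il17a (-1.55 ± 0.35) were called as well, 8 of 10 members beside 16.3% of all genes. Gzma, Gzmb and Cd8b1 passed the 1 TPM filter through the rectum of day 9 alone, and Foxp3 and Il17a passed the lower filter through it. Neither count therefore carries weight of its own. Anal Gzma was later, at 1.04, 4.58 and 2.78 TPM on day 14 (1.65 ± 0.34, adjusted p = 0.0341; 1 of 4 members tested, beside 4.27% of all genes). That call was lost without 6 of the 7 mice in turn (adjusted p up to 0.134), without a filter and with all groups in a single fit. Anal Gzmb, untested at 1 TPM, was called with the 0.1 TPM filter (1.19 ± 0.24, adjusted p = 0.0406; 2 of 7 members, beside 3.1% of all genes), but not without a filter (adjusted p = 0.0766).

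**Figure D3:**
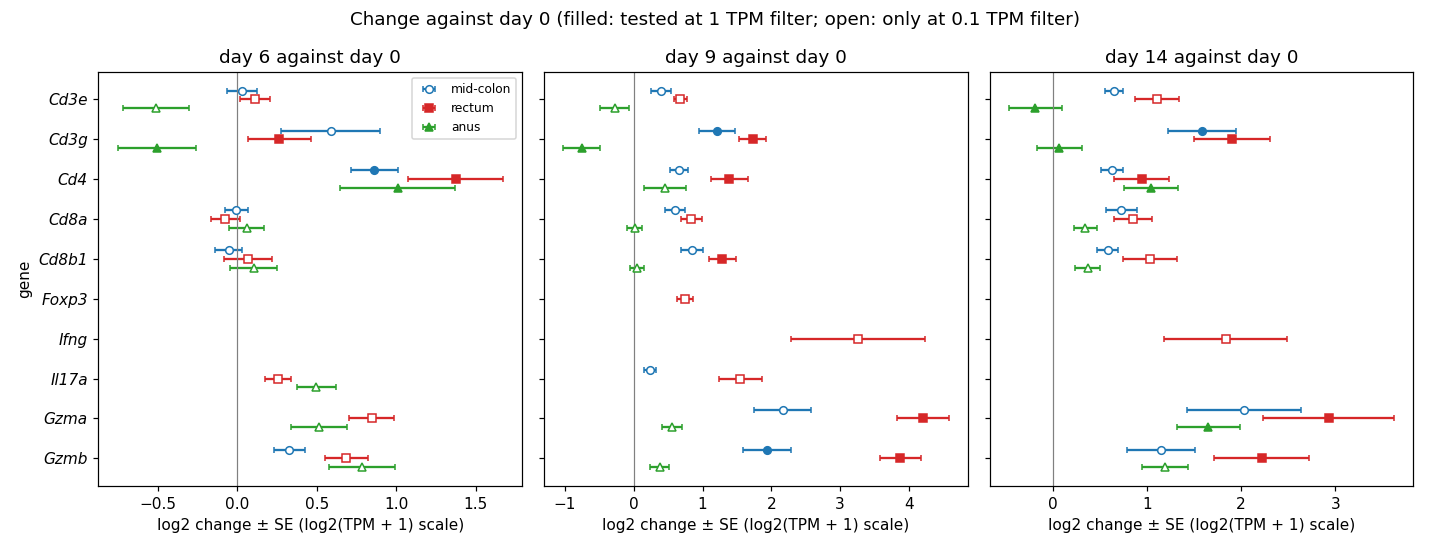
The log2 change of each gene against day 0 of the same section is plotted with its SE for days 6, 9 and 14. Colours and shapes mark mid-colon, rectum and anus, and open symbols are genes tested only with the 0.1 TPM filter. On day 9 the rectal changes of Gzma (4.20) and Gzmb (3.87) lie farthest to the right and the anal change of Cd3g (-0.76) lies left of 0.

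Over 66 samples the genes most like Gzma were Gbp5 (r 0.93), an interferon-induced GTPase, Cxcl9 (0.92), a chemokine induced by interferon-gamma, and Gm43302 (0.91). Those most like Gzmb were Serpina3f (0.95), Klra2 (0.92), a gene of the Ly49 receptor family, and Gbp5 (0.91). The other 6 members reached 1 TPM in too few samples for this search. Of the cytotoxic granule list (11 genes), 4 were tested in rectum on day 9 and all 4 were higher, beside 33.5% of all genes. Among them were Srgn, the granule proteoglycan, up by 6.26 ± 0.32, and Nkg7, a granule membrane protein, up by 2.00 ± 0.35. Srgn is also made by other leukocytes. Prf1, the pore-forming partner of the granzymes (named here after its values were seen), stayed scarce, with values between 0.0318 and 1.02 TPM in rectum on day 9.

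The NK cell marker sum and pan-leukocyte markers were higher in rectum on day 9 too. The NK marker sum (6 genes: Ncr1, Klrb1c, Eomes, Klra8, Klra4 and Klrk1) was between 0.83 and 1.20 TPM in uninjured rectum. It was 2.90, 14.9 and 6.82 TPM in mice 11, 12 and 13 on day 9, when none of the 6 was at 0 in all mice, and 1 of 1 tested, Klrk1, was higher. The order of the 3 mice was the same as for Gzma. Its log2 sum had r 0.85 with Gzma and 0.86 with Gzmb over 66 samples, and that of pan-leukocyte markers had r 0.80 and 0.85. Summed pan-leukocyte markers (4 genes) went from between 26.0 and 71.7 TPM in uninjured rectum to between 372 and 742 TPM on day 9. Of these markers 4 of 4 were higher, beside 33.5% of all genes. Klrk1 had the highest mean of the 6 NK markers over 66 samples (1.89 TPM, next Klrb1c at 0.638 TPM), so the NK sum leans on that gene. The part of NK cells in these values was not tested.

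Receptor genes outside the members were also higher in rectum on day 9. Of the receptor and signalling list, 8 were tested in rectum on day 9 and 8 were higher. Trbc2 rose by 3.10 ± 0.36 from a mean of 1.64 TPM to 20.6 TPM, and Trac by 2.37 ± 0.22 from 0.370 to 6.10 TPM. Lck, the kinase that starts receptor signalling, rose by 1.40 ± 0.25. In mid-colon 4 of 5 were higher, beside 26.5% of all genes. In anus it was 0 of 7, on a day when 1.46% of all genes were called higher there. Trbc1 (1.29 ± 0.28) and Trbc2 (1.04 ± 0.36) were already called in rectum on day 6, when Cd3g was not. The gamma chain gene Tcrg-C1 rose by 1.13 ± 0.26 on day 9, from a mean of 0.386 TPM to 2.07 TPM. Homing genes of naive and central memory cells were tested in 5 of 6 cases and all 5 were higher. Of the effector homing and residency list 6 of 6 tested were higher, with the monocyte and T cell receptor Ccr2 up by 2.28 ± 0.36. Of the checkpoint list 3 of 3 tested were higher, with Cd274, which encodes PD-L1, up by 3.76 ± 0.75. In rectum on day 9, 33.5% of all tested genes were higher, and B cell markers were too (3 of 5 tested). Their sum (7 genes) ran from 1.96 to 34.3 TPM uninjured and from 26.3 to 98.1 TPM on day 9. Uneven lymphoid tissue between sections was not tested.

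**Figure D4:**
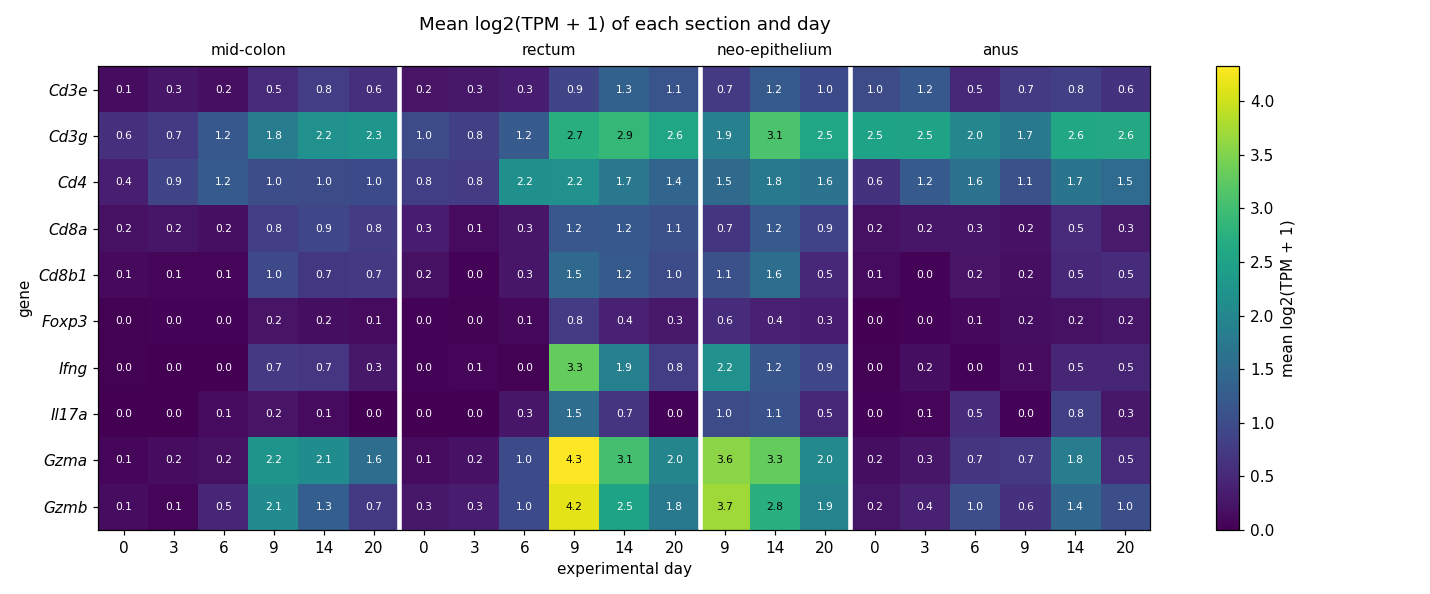
Colour and number give the mean log2(TPM + 1) of each gene (rows) in each section and day (columns, 4 mice on day 0 and 3 on other days). Gzma and Gzmb are brightest in rectum on day 9, with neo-epithelium of day 9 next, while Cd3g is already 2.5 in uninjured anus.

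Squamous neo-epithelium, which the labels list as its own section on days 9, 14 and 20, held more of several of these transcripts than anus. Over its 9 mice Gzma was 4.36, 14.0 and 19.8 TPM on day 9, 3.05, 20.2 and 10.4 TPM on day 14 and 2.44, 12.7 and 0.453 TPM on day 20. It exceeded the anus of the same mouse in 9 of 9 mice and the rectum in 5 of 9. With day as a covariate it was higher than anus by 1.95 ± 0.45 (adjusted p = 0.00142). Gzmb was higher than anus by 1.77 ± 0.43 (adjusted p = 0.00230) and in 9 of 9 mice. Cd8a was higher by 0.55 ± 0.14 (adjusted p = 0.00253, 9 of 9 mice) and Cd8b1 by 0.64 ± 0.20 (adjusted p = 0.0105, 6 of 9 mice). Ifng was higher by 1.07 ± 0.44 (adjusted p = 0.0438, 8 of 9 mice). That call was lost without 6 of the 9 mice in turn (adjusted p up to 0.102), without a filter, with the 0.1 TPM filter and with TMM scaling, and its adjusted p over the other settings ran from 0.0280 to 0.0690.

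These were 5 of 9 tested members, beside 58.5% of all genes, so the share among the members was near that of all genes. In anus Cd8a reached 1 TPM in 0 samples, Cd8b1 in 1 and Ifng in 2, so these genes passed the filter through neo-epithelium. The count carries no weight of its own. The mouse as a block kept the 5 calls and added Il17a (0.48, adjusted p = 0.0307, against 0.123 without the block). Cd3g (0.19 ± 0.22, adjusted p = 0.466), Cd3e (0.25 ± 0.14, adjusted p = 0.12) and Cd4 (0.21 ± 0.13, adjusted p = 0.166) were not called. Receptor constant genes went in both directions between these tissues: Trac was higher in neo-epithelium by 1.23 ± 0.33 (adjusted p = 0.00455), whereas Trbc2 was lower (-1.17 ± 0.18, adjusted p = 4.74e-05). Pan-leukocyte markers were higher in neo-epithelium (4 of 4), as were 2 of 2 NK markers tested.

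Against rectum, limma called 0 of 9 tested members in neo-epithelium, none with an unadjusted p under 0.05, where 42.0% of all genes were called. The differences ran from -0.57 ± 0.67 for Ifng to 0.11 ± 0.29 for Il17a, with Gzma at -0.14 ± 0.60 and Gzmb at -0.01 ± 0.43. These errors do not show that the levels were alike. Summed colonocyte markers lay between 1706 and 3318 TPM in neo-epithelium of day 20, against 341 to 689 TPM in anus. The part of colonic tissue in the comparisons of neo-epithelium with anus and rectum was not tested.

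The same mice were high or low across genes and sections. On day 20 mouse 18 held the highest of the 3 values in 30 of 40 gene and section pairs and the lowest in 0, and mouse 19 the lowest in 29. On day 14 mouse 14 was lowest in 33 of 40 pairs. On day 9 mouse 12 was highest in 22 and mouse 11 lowest in 22. Ties at 0 were given to no mouse (5 pairs for the lowest value and 1 for the highest on day 20, and 2 for the lowest on day 9). In mouse 18 Gzma was 10.6 TPM in mid-colon, 18.1 in rectum, 12.7 in neo-epithelium and 2.08 in anus, whereas in mouse 19 it was 0 in mid-colon and in anus, 0.230 in rectum and 0.453 TPM in neo-epithelium. Cd3g in anus was an exception for mouse 19, at 7.39 TPM the highest of the day. Summed pan-leukocyte markers in rectum were lowest in mouse 19 on day 20 (64.1 against 334 and 300.9 TPM) and in mouse 14 on day 14 (76.9 against 601 and 455 TPM). B cell marker sums were lowest in the same 2 mice (20.2 and 10.8 TPM). Without mouse 19, rectal Gzmb (2.09, adjusted p = 0.00423), Gzma (2.67, adjusted p = 0.0285), Cd3e (1.25, adjusted p = 0.00371) and Cd4 (0.80, adjusted p = 0.0288) were called on day 20 beside Cd3g. Mouse 19 was picked for its low values in these same genes. Leaving it out also lowered the number of samples that the filter asks for. Gzmb, Gzma and Cd3e were untested at 1 TPM with all mice, so these calls carry no weight of their own. Whether such mice differed in injury or in the tissue sampled was not tested.

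**Figure D5:**
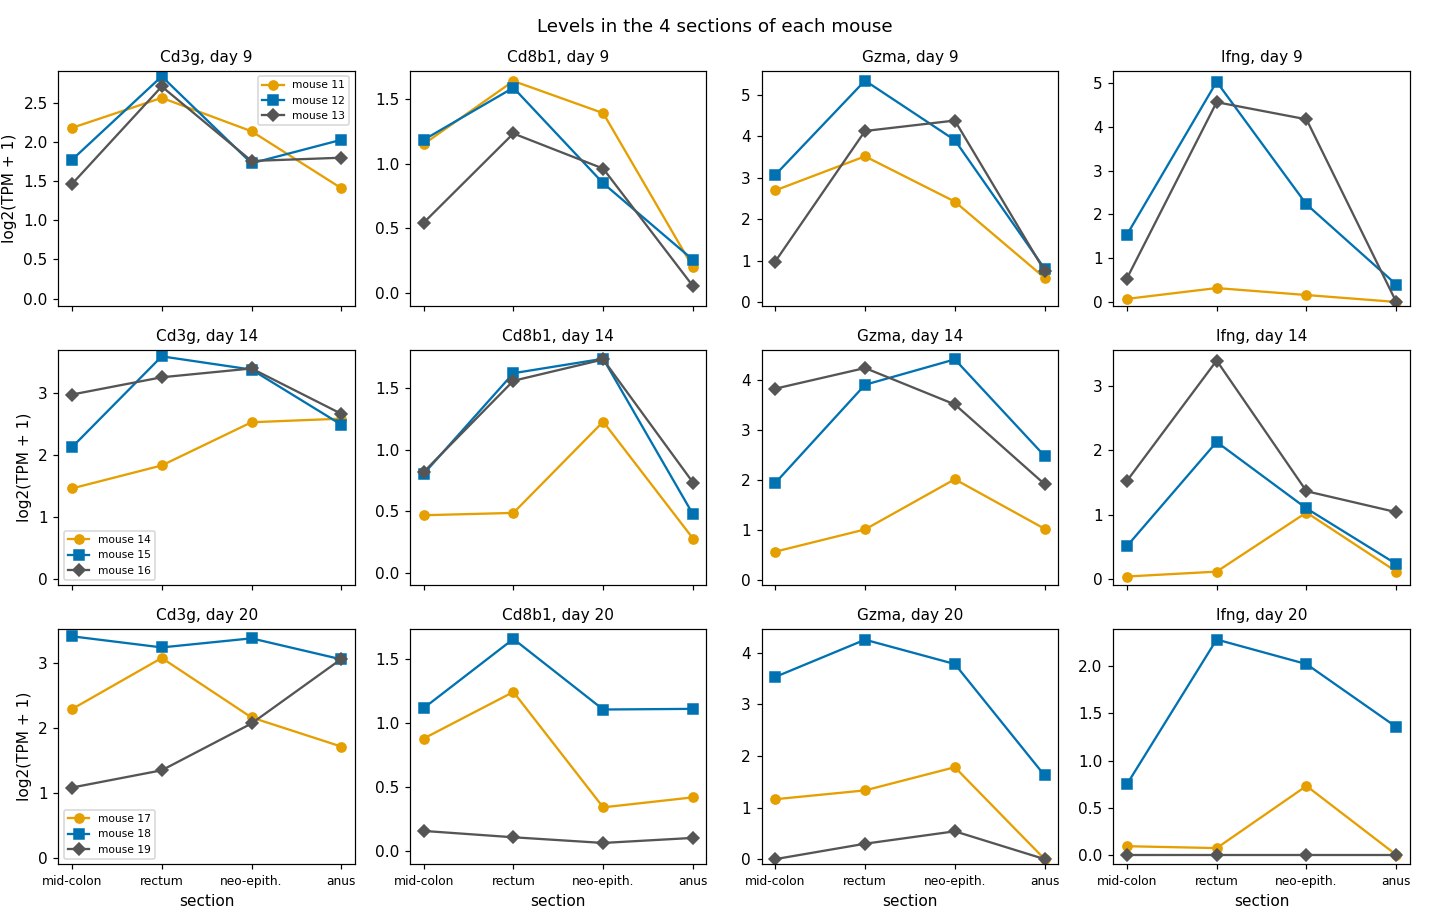
Log2(TPM + 1) of Cd3g, Cd8b1, Gzma and Ifng (columns) is plotted over the 4 sections for days 9, 14 and 20 (rows), with 1 line per mouse. Mouse 18 lies above mice 17 and 19 for Gzma and Ifng in all 4 sections of day 20, and mouse 11 lies lowest for Ifng on day 9, level with mouse 13 in anus where both were listed at 0.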

How the data were processed

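RNA sequencing was done on 66 tissue sections from 19 mice. The authors deposited 1 table of TPM values per Ensembl transcript, a length-adjusted signal scaled to a common total. The submitters' processing notes name CASAVA, kallisto and mm10, without versions or roles. Of 89516 rows with values, 1318 repeats of a transcript were dropped, and TPM was summed per gene over 88198 transcripts, of which 1284 without a gene identifier were left out. Counts and depth are unknown, so no counting interval is given.

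Samples were grouped by section and day as labelled (21 groups). Limma 3.58.1 in R 4.3.3 was fitted to log2(TPM + 1), on the samples compared only, with a 1 TPM filter, Benjamini-Hochberg adjustment over all genes and a threshold of 0.05. Comparisons were each later day against day 0, day 20 against day 9, section against section, and the interaction of section and day. Neo-epithelium was compared over days 9 to 20 with day as a covariate. The script was tested on simulated data. Python 3.11.15, numpy 2.4.6, pandas 2.3.3 and matplotlib 3.10.9 were used for the rest.

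Sections of 1 mouse share its identifier in the labels, and section comparisons were refitted with the mouse as a replicate block. Mean Pearson r of deviations within a mouse ran from 0.038 to 0.287. Replicates are mice, and nothing states cage or batch. P-values of day comparisons within a section measure the spread between these animals. The main fits across sections hold no mouse term and count sections of 1 mouse as separate samples. Their p-values mix spread between and within mice. The members and the gene lists were chosen with earlier results of these data known. Named examples of a list are its 2 genes of highest mean TPM and those called in at least 3 of the contrasts of mid-colon and rectum with day 0. Alternatives were another pseudocount, other filters, TMM scaling, all groups in a single fit, the block, and each mouse left out.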

Additional observations from a re-analysis of the deposited data

Results flagged for a closer look

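In groups of 4 uninjured mice a single mouse stood far from the others by Dixon's criterion in 5 of 28 groups, all at values near 0. The rate of about 1 in 20 groups that chance gives does not hold for 4 of them, in which the other 3 mice were listed at 0, so that any value above 0 stands apart. Ifng was 0.136 TPM in rectum of mouse 2, 0.0494 TPM in mid-colon of mouse 3 and 0.0545 TPM in anus of mouse 4, and was listed at 0 in the other 3 mice of each. Foxp3 was 0.0170 TPM in anus of mouse 3, against 0 in the others, and 0.0465 TPM in rectum of mouse 3, against 0.0144 to 0.0183 TPM.

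The response to injury on day 9 differed between sections for 4 members by the test of the interaction. Compared with rectum, anus differed by -2.49 for Cd3g, -1.25 for Cd8b1, -3.65 for Gzma and -3.50 for Gzmb on the log2 scale. That was 4 of 5 tested members, beside 19.9% of all genes. Cd8b1, Gzma and Gzmb passed the 1 TPM filter through the rectum of day 9 alone, so the count carries no weight of its own. Compared with mid-colon, rectum differed by 1.94 for Gzmb, 1 of 7 tested members beside 6.55% of all genes. This Gzmb call was kept in 2 of 7 fits with 1 mouse left out. It was lost with TMM scaling, without a filter and with a pseudocount of 0.1 TPM (limma adjusted p up to 0.277).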

How the results depend on the processing

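The counts of called members, summed over the days of a comparison, depended on the filter, which sets how many members are tested, and on other settings. Without a filter the count went from 4 to 10 in mid-colon, from 9 to 14 in rectum, from 1 to 2 for uninjured anus against rectum and from 4 to 8 for the response of anus against rectum, but from 1 to 0 for day 20 against day 9. A filter of 5 TPM left 0 in mid-colon, 2 in rectum, 0 in anus (from 1), 0 for uninjured anus against rectum and 2 for neo-epithelium against anus (from 5). The 0.1 TPM filter, chosen after seeing the data, gave 10, 19 and 4 in mid-colon, rectum and anus, 2 for day 20 against day 9, 2 for uninjured anus against rectum, 3 for the response of rectum against mid-colon (from 1) and 8 for that of anus against rectum. All 21 groups in a single fit gave 7, 20 and 3 in mid-colon, rectum and anus and 2 for uninjured anus against rectum. TMM factors gave 0 in anus, 0 for day 20 against day 9 and 0 for the response of rectum against mid-colon, and a pseudocount of 0.1 TPM gave 0 for that response. The block for the mouse, the pairing the labels give, raised that response to 2 members and changed no count of members in another comparison by over 1.5 times. Over all genes it moved the calls from 216 to 349 for uninjured rectum against mid-colon, from 68 to 8 and from 29 to 6 for the response of anus against rectum on days 3 and 20, and from 0 to 3, 0 to 76, 1 to 0 and 1 to 5 for that of rectum against mid-colon on days 3, 6, 14 and 20. With 1 mouse left out the counts ran from 3 to 7 in mid-colon (7 without mouse 13), 6 to 15 in rectum (14 without mouse 14, 15 without mouse 19) and 0 to 2 in anus (0 without mouse 2, 3, 4, 15 or 16, and 2 without mouse 1 or 14). They ran from 0 to 4 for day 20 against day 9 (0 without mouse 12, 17 or 19, 3 without 11, 4 without 18) and from 1 to 1 for uninjured anus against rectum. They ran from 4 to 5 for neo-epithelium against anus, from 0 to 4 for the response of rectum against mid-colon (0 without mouse 1, 2, 3, 4 or 13, 2 without 14, 3 without 12, 4 without 11) and from 4 to 9 for that of anus against rectum (9 without 14). Leaving out a mouse of a later day also lowered the number of samples that the filter asks for. The causes were not tested. Of 28 calls made with the 0.1 TPM filter alone, 8 were lost without a filter (adjusted p from 0.0504 to 0.0766): Cd4 and Cd8b1 in mid-colon and Cd8a in rectum on day 14, Gzmb in anus on days 6 and 14, rectal Ifng on day 9, and Il17a for rectum on day 20 against day 9 and for the response of rectum against mid-colon. TMM factors also called Cd4 in rectum on day 14 (0.88, adjusted p = 0.0402). For uninjured rectum against mid-colon and neo-epithelium against rectum the count was 0 under every alternative run. The 26 calls of single genes were refitted 323 times: 263 kept the call, 60 lost it and 0 changed direction. TMM factors moved the median change of all genes by over 0.1 in several comparisons, as in rectum on day 6 (from -0.27 to -0.04), where Cd4 changed by 1.57, and in mid-colon on day 6 (from -0.24 to -0.03), where Cd4 changed by 1.09. Depth is unknown, so a value listed at 0 sets no upper limit, and groups of 3 or 4 mice limit what can be called.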

Other observations

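The genes in this paragraph were chosen after their values were seen. Il22, a cytokine that acts on epithelium, was listed at 0 in all uninjured anus, rectum and mid-colon and ranged from 3.62 to 9.45 TPM in rectum on day 9 (2.61 ± 0.28, limma adjusted p = 9.34e-05). Tbx21, the T-bet factor that drives Ifng, was at most 0.0481 TPM in uninjured rectum and between 0.153 and 1.08 TPM on day 9. Fasl, a death ligand of cytotoxic lymphocytes, was between 0.496 and 0.618 TPM in rectum on day 9 and between 0.602 and 1.97 TPM in neo-epithelium on day 14. Trbc2 in anus ranged from 23.4 to 41.1 TPM uninjured and from 54.8 to 82.5 TPM on day 6, whereas Cd3g there was between 2.59 and 3.58 TPM on day 6.

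Of the 10 genes, 6 had 1 transcript with values. The 2 transcripts of Cd8a took 55.8% and 44.2% of its TPM over all samples, and 4 transcripts of Foxp3 took 41.4%, 34.7%, 20.4% and 3.58%. The main transcripts of Cd3g and Cd4 took 91.5% and 90.0%. These splits are estimates from single-end reads of 75 bases.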
